A study of Mus musculus with 10 samples.

Results

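Adding oxaliplatin (Oxali) to interferon gamma (IFNγ) was compared by ATAC-seq in Myc-CaP cells, by setting the Oxali + IFNγ list of accessible regions directly against the IFNγ list. The Oxali + IFNγ list held 69665 regions that overlapped no interval of the IFNγ list, which was 41.2% of its 169143 strong regions. In the other direction the IFNγ list held 9473 regions that overlapped no interval of the Oxali + IFNγ list, or 8.38% of its 113014. A further 97944 merged regions were called in both, and the 5 lists of the series together covered 204075. A region was one interval called by MACS2, strong when its q was at most 0.01 in its own list, and an overlap of 1 bp made it shared. The unshared regions were therefore chosen by whether a call was made in each list, and their counts describe that choice.

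Myc-CaP is a mouse prostate cancer cell line, labelled as male and of strain FVB/NJ. Cells of both groups received IFNγ for 48 h, labelled as 1000 pg with no volume, and 1 of the groups also received 2 µM oxaliplatin. The other groups of the series were left untreated (Ctrl) or received 2 µM oxaliplatin or 2 µM cisplatin (Cispl) for the same time. Each of the 5 groups had 2 libraries, 10 in all, and the authors merged the libraries of a group before calling peaks, so that each list is 1 measurement. There was thus no spread between replicates and no test, and the intervals below cover counting error only. All libraries came from this 1 cell line, and the labels do not say whether the libraries of a group were separate cultures.

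ATAC-seq marks DNA that a transposase can reach, which in most cells means active promoters and enhancers. IFNγ binds a receptor made of IFNGR1 and IFNGR2, acts through the kinases JAK1 and JAK2, and induces IRF1, NLRC5, the guanylate-binding GTPases and the machinery that loads peptides on class I MHC molecules. Oxaliplatin is a platinum drug that crosslinks DNA. The comparison asks what the drug added to chromatin accessibility when IFNγ was already present.

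Sequences of 151 bases around the summit are shown for regions that stood out in each direction, because they show what kind of DNA gained or lost a call. They were read from the RefSeq copy of GRCm38.p6 (mm10) on the forward strand, and capitals mark exact matches to the searched motifs on either strand. The first set belongs to the Oxali + IFNγ list alone. It comprises an intron of Arhgap22 at chr14:33288037-33288187 with a pair of NF-κB matches and an AP-1 match, an intron of Fam110b at chr4:6068476-6068626 with an AP-1 match, an intron of Thada at chr17:84408881-84409031 with a RUNX and an NF-κB match, a noncoding exon nearest to 4931417E11Rik at chr6:73587765-73587915 with a steroid receptor element, and an intron of Nlrc5 at chr8:94443385-94443535 with an NF-κB match.
Arhgap22 intron: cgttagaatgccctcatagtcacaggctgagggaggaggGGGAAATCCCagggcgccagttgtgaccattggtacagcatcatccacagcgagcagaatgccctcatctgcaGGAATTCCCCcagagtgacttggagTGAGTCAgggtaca
Fam110b intron: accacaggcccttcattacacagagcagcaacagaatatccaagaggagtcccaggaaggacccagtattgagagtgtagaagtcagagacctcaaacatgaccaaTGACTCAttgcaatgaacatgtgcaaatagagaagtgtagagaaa
Thada intron: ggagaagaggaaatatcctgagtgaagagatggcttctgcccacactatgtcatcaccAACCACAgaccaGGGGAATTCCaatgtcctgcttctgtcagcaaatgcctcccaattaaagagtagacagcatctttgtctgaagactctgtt
4931417E11Rik: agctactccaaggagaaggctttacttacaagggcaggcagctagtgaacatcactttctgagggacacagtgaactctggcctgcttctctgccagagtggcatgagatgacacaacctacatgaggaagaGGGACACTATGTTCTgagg
Nlrc5 intron: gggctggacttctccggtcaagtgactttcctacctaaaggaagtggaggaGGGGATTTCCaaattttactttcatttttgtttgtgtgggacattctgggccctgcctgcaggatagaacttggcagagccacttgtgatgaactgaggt

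The second set belongs to the IFNγ list alone. An intron of Scd3 at chr19:44239054-44239204 held 2 AP-1 matches. An intron of Nelfa at chr5:33907409-33907559 held none and was wholly repeat-masked, like 1 other of the 5 leading windows of this kind.
Scd3 intron: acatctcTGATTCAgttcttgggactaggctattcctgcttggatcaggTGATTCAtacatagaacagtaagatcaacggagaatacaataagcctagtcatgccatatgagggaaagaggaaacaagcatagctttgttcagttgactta
Nelfa intron: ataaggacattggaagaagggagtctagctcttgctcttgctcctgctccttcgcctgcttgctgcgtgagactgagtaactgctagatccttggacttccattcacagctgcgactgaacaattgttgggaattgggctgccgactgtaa

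The third set was called in both lists and was higher with Oxali + IFNγ. It comprises the DNA upstream of the chemokine gene Ccl5 at chr11:83534800-83534950 with an IRF and an NF-κB match, an intron of Tnip1 at chr11:54931556-54931706 with a steroid receptor element, and an intron of Itga5 at chr15:103358788-103358938 with 2 AP-1 matches and a STAT match that overlaps the first of them.
Ccl5 upstream: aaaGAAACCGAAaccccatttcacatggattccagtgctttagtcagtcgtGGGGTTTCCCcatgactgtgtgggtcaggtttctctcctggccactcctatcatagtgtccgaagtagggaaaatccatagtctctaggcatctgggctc
Tnip1 intron: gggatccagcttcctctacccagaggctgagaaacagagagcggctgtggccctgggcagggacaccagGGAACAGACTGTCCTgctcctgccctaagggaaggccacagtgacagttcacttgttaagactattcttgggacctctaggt
Itga5 intron: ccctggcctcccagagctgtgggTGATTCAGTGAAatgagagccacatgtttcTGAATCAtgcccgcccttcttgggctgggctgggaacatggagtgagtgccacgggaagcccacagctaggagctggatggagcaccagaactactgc

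The lists differed in depth, and the counts were repeated with depth matched. MACS2 compares the pileup, the number of extended cut sites over a base, with a background that never falls below the mean over the whole genome. This genome background rises with depth and was 9.62 in the IFNγ list and 12.9 in the Oxali + IFNγ list, or 134% of it. Levels below are the pileup at the summit divided by the genome background of the list. When every Oxali + IFNγ pileup was scaled down to the depth of the IFNγ list and tested again, 65441 regions remained in the Oxali + IFNγ list alone, against 9575 in the IFNγ list alone. The Oxali + IFNγ list thus held 88.0% of all unshared regions as deposited (95% interval 87.8 to 88.3) and 87.2% at matched depth (87.0 to 87.5). In DNA covered this was 19.9 Mb against 2.08 Mb.

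**Figure D1:**
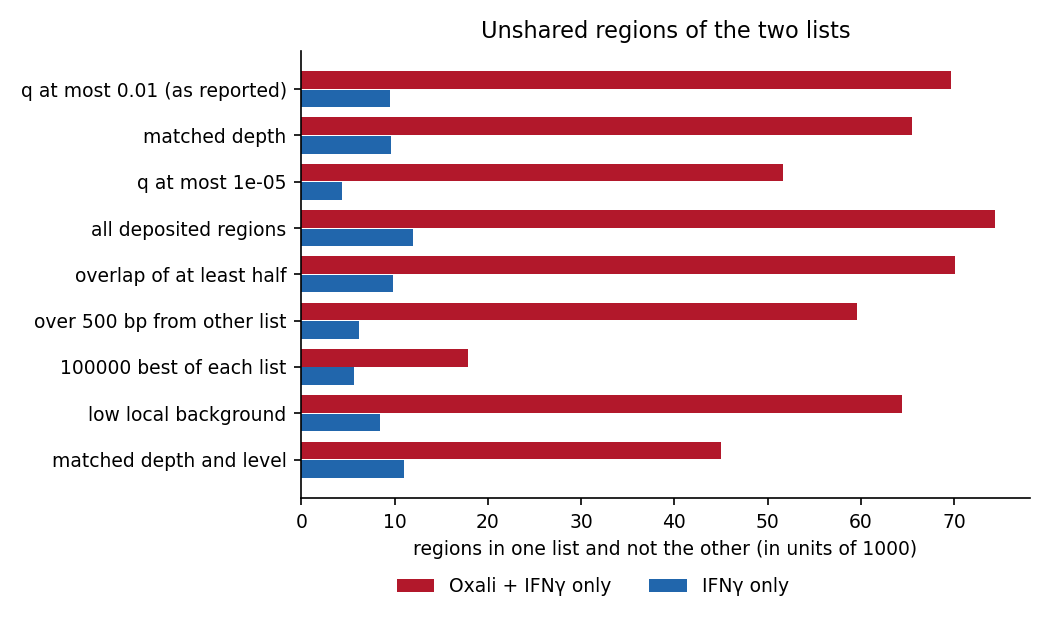
Bars give the number of regions (axis in units of 1000) held by the Oxali + IFNγ list alone (red) and by the IFNγ list alone (blue) as reported and under 8 other ways of counting. The red bar is the longer one in each, from 69665 against 9473 as reported to 17923 against 5621 for the 100000 best regions of each list. Those were still matched against all intervals of the other list, so list size was not made equal. Bars are counts from 1 list per group and carry no replicate error.

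Most unshared regions were weak. The median level was 3.56 in the Oxali + IFNγ list alone and 3.22 in the IFNγ list alone, and 6.75% and 6.95% of them reached a level of 10. A level of 20 was reached by 752 and 172. A region that was not called may still have been open, since a pileup of 18, a level of 1.87, was needed over the genome background in the IFNγ list and 22, a level of 1.71, in the Oxali + IFNγ list, and more where the local background was higher. Of the regions of the Oxali + IFNγ list alone, 10100 (14.5%) lay within 500 bp of an IFNγ interval. For the IFNγ list alone it was 3231 (34.1%).

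The leading regions of the Oxali + IFNγ list alone, by q and with a low local background, were also found with oxaliplatin and cisplatin in the absence of IFNγ. The intron region of Arhgap22, which encodes a GTPase-activating protein for Rac, reached a pileup of 406 at chr14:33287761-33288717. Its level was 31.5 with Oxali + IFNγ, 22.4 in the Oxali list and 5.96 in the Cispl list, and it was called in neither the Ctrl nor the IFNγ list. A region in an intron of Thada, at chr17:84408397-84409154, had levels of 28.3, 27.8 and 8.43 in the same 3 lists and again no call in the Ctrl and IFNγ lists. An intron of Ppara, the receptor that governs fatty acid oxidation, was called in every list but that of IFNγ, with a level of 3.46 in Ctrl, 38.5 for Oxali, 21.7 for Cispl and 32.8 for the pair of agents.

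Acox3, a peroxisomal oxidase of branched fatty acids, had a region 26011 bp from its start site at levels of 2.72 in Ctrl, 33.6 for Oxali, 15.8 for Cispl and 33.7 for Oxali + IFNγ. An intron region of Erg, an ETS factor known for its fusion to Tmprss2 in prostate cancer, went from 2.80 in Ctrl to 21.6, 12.5 and 26.7. The Fam110b intron had an Oxali + IFNγ level of 29.8. The region nearest to 4931417E11Rik, 118173 bp from its start site, and a region 194404 bp from Egln3, an oxygen-sensing prolyl hydroxylase, had 24.7 and 28.4. All 8 leading regions were higher with Oxali + IFNγ than with Cispl, which their choice by q in the Oxali + IFNγ list favours. Those of Ppara and Egln3 were higher with Oxali alone, at 38.5 and 30.9, than with Oxali + IFNγ, at 32.8 and 28.4. The rest of the 8 were lower with Oxali alone. A weak Ctrl call, at levels of 2.72 to 4.04, was present for 6 of the 8.

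The leading regions of the IFNγ list alone, also by q and with a low local background, were lower, at levels of 14.2 to 17.7. Over all unshared regions the highest level was 210 in the IFNγ list alone and 105 in the Oxali + IFNγ list alone. An intron of Scd3, a stearoyl-CoA desaturase, had a pileup of 140 at chr19:44238976-44239564, a level of 14.6, and its nearest Oxali + IFNγ interval was 237 bp away. It was also called in Ctrl, at 4.70, and in neither drug list. An intron of Cspp1, a centrosome and cilium protein, had 15.5 with IFNγ and 6.59 in Ctrl. The Nelfa intron had 15.6, and a region 411995 bp from the start site of Gm21833 had 17.7. A region 8090 bp from that of the vomeronasal receptor gene Vmn1r198 had 14.2. Repeat-masked bases made up 65.6% of the Gm21833 window and all of the Nelfa and Vmn1r198 windows, and reads from repeats can be placed in several copies.

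**Figure D2:**
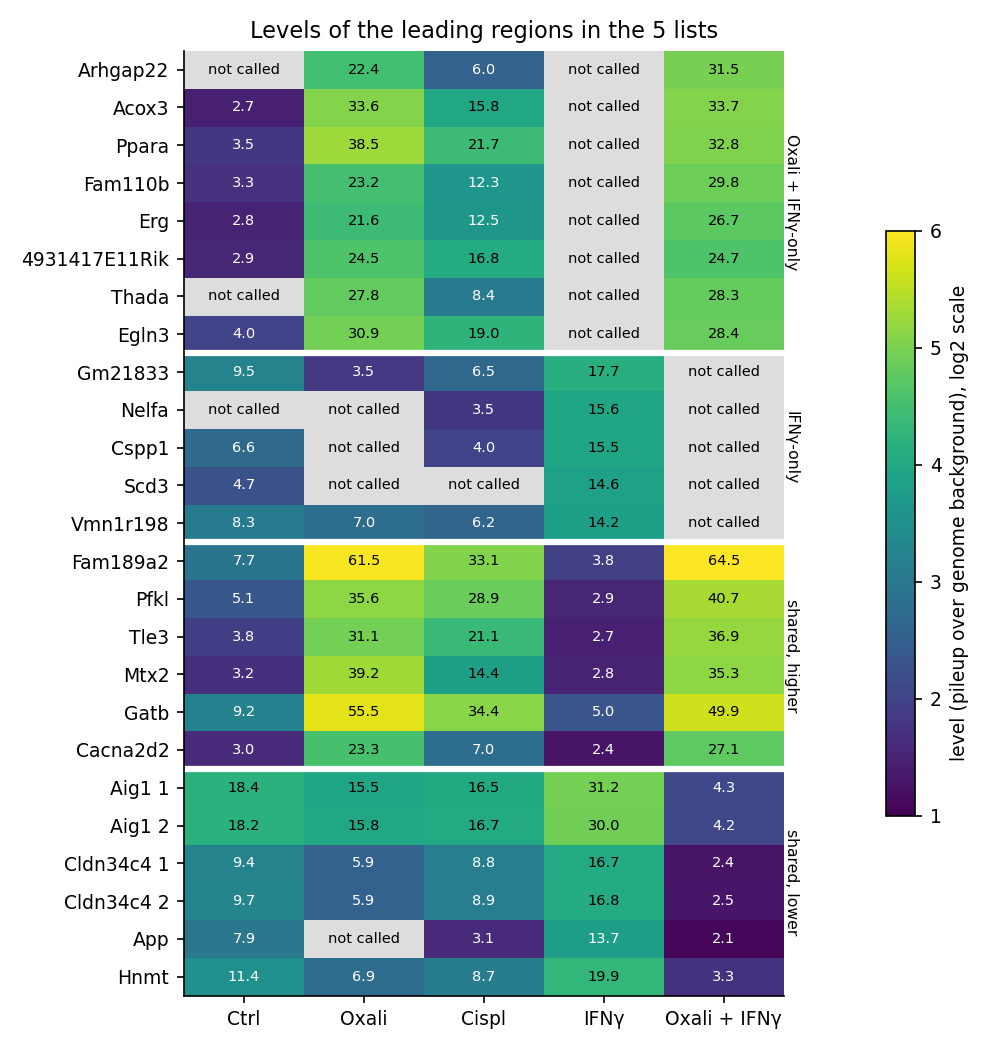
Rows are the leading regions of each kind, named by their nearest or host gene, columns are the 5 lists, and colour and printed number give the level as the pileup over the genome background on a log2 colour scale; grey cells were not called. The 8 regions of the Oxali + IFNγ list alone also had calls in both drug lists, and the regions lower with Oxali + IFNγ were called in Ctrl as well.

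Across all regions of the Oxali + IFNγ list alone, the other lists were most often those of the drugs. Of the 69665 regions, 66.0% (65.6 to 66.3) overlapped an interval of the Oxali list, 62.7% one of the Cispl list and 18.7% one of the Ctrl list. These lists held 158621, 174048 and 122298 regions in that order, and a larger list can overlap more of any set. The 69665 were also chosen for having no IFNγ call, and no shares over all Oxali + IFNγ regions were set beside these. Regions of the 69665 called with both drugs and not in Ctrl numbered 24594 (35.3%). No other list held 14737 (21.2%), and these were weak, with a median pileup of 35 against 55 for those called with both drugs. Regions of the IFNγ list alone were found least often in the Oxali list. The Ctrl list held 41.4% of them (40.4 to 42.4), the Cispl list 39.1% and the Oxali list 17.1%, and 41.1% were in no other list.

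By position the regions that came with oxaliplatin lay away from promoters. Of the Oxali + IFNγ list alone, 10.1% (9.88 to 10.3) lay within 1 kb of a GENCODE M21 transcription start site, 44.1% in introns and 42.1% between genes. Start sites took 12.1% (11.5 to 12.8) of the regions of the IFNγ list alone and 22.2% (21.9 to 22.5) of the shared regions. The median distance to a start site was 21251 bp, 14824 bp and 11957 bp in the same order, and the median widths were 229, 186 and 607 bp. Regions that were more than 50% repeat-masked made up 17.6%, 28.6% and 13.2%. The share of the Oxali + IFNγ list that was unshared ran from 36.3% on chromosome 11 to 47.4% on chromosome 18 among the autosomes.

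At the shared regions the level was more often higher with Oxali + IFNγ. Of 97944 regions, 35370 (36.1%) were at least 1.5-fold higher and 5454 (5.57%) at least 1.5-fold lower. The median log2 ratio was 0.33, so that a ratio of 1.26 was the middle of the distribution. Dividing every ratio by that median left 21568 higher and 17181 lower, and the higher share of the called regions went from 86.6% to 55.7%. Scaled instead to the summed pileup of the shared regions it was 77.0%. Centring divides every ratio by 1.26, and some higher start sites named below, those of Irgm1, Cd274, Tapbpl and Fas among them, were under 1.5-fold when centred. With 1 list per group, a general gain in accessibility and a difference in scale between the lists cannot be told apart.

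The ratio varied with how open the region was. A shared region had to be called in both lists, at levels of at least 1.87 with IFNγ and 1.71 with Oxali + IFNγ. The call itself therefore limited the ratios at the lowest mean levels. The median log2 ratio was 0.07 at mean levels under 3, 0.65 at levels of 6 to 10, 0.21 at 20 to 40 and -0.24 at 40 and above. Start sites had a median of -0.08, against 0.45 in introns and 0.41 between genes, and start sites at levels of 40 and above had -0.37. Of the regions lower with Oxali + IFNγ 43.6% were start sites, and of those higher 11.8%. Where the local background was at most 3 times the genome background the start-site median was 0.31. Local background, level and position moved together here, and their parts in the ratio were not tested.

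**Figure D3:**
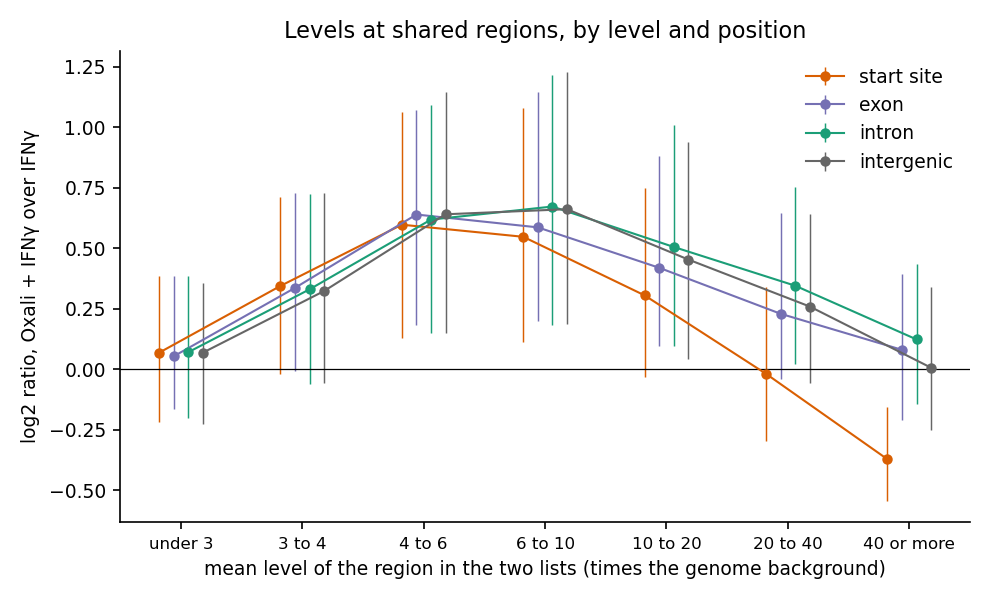
Points are the median log2 ratio of Oxali + IFNγ over IFNγ at shared regions in 7 classes of mean level, in units of the genome background, for start sites, exons, introns and intergenic regions, and bars run from the lower to the upper quartile. All 4 positions peaked between levels of 4 and 10 and fell above it, and start sites ended lowest, at -0.37. At the lowest levels the need for a call in both lists limits the ratio.

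The shared regions whose ratios had the highest lower bounds were mostly distal and had low IFNγ levels. An intron region of Fam189a2 at chr19:23987084-23988074 went from a pileup of 37 with IFNγ to 833 with Oxali + IFNγ. Its levels were 7.66 in Ctrl, 3.85 with IFNγ, 61.5 and 33.1 with Oxali and Cispl, and 64.5 with Oxali + IFNγ, and the ratio was 16.8 (12.1 to 24.0). The region by a start site of Pfkl, the liver type of phosphofructokinase, went from 2.91 to 40.7, a ratio of 14.0 (9.56 to 21.2). A region 87827 bp from the start site of Tle3, a transcriptional corepressor, and outside that gene, went from 2.70 to 36.9, with a ratio of 13.7 (9.20 to 21.1). A region 258588 bp from the start site of Mtx2 had a ratio of 12.6, and intron regions of Gatb and Cacna2d2 had 10.0 and 11.4. In all 6 the Oxali list had the higher level of the drug lists without IFNγ, from 23.3 to 61.5, and the Ctrl level was 3.05 to 9.23.

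The regions whose ratios had the lowest upper bounds were mostly repeats. A pair of regions near Aig1 had IFNγ levels of 31.2 and 30.0 that went to 4.26 and 4.18 once oxaliplatin was added, ratios of 0.137 (0.101 to 0.183) and 0.139. A pair on chromosome X, 61510 and 62450 bp from the start site of Cldn34c4, had ratios of 0.144 and 0.147. A region 109199 bp from that of Hnmt, the histamine methyltransferase, had 0.168. These 5 windows were wholly repeat-masked. The exception was an intron of App, the amyloid precursor, at chr16:85075340-85075761, which was 20.5% masked. Its level was 7.91 in Ctrl, 13.7 with IFNγ and 2.09 with Oxali + IFNγ, it was not called with Oxali, and the ratio was 0.153 (0.0969 to 0.232).

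Start sites of protein-coding genes were ranked where the local background was at most 3 times the genome background. The highest lower bounds were at Lypd6b, at 8.36 (5.88 to 12.2) with levels of 3.53 and 29.5, and at Fam20a, a pseudokinase of the secretory pathway, at 9.26 (5.80 to 15.7). Next were the olfactory receptor gene Olfr522 at 7.92 and Gm36176, which lies in Tspear, at 7.44. The lowest upper bounds were at Asmt, an enzyme of melatonin synthesis, at 0.378 (0.279 to 0.509), at the fucosyltransferase gene Fut1 at 0.379 (0.272 to 0.523), at the keratin gene Krt19 at 0.418 (0.313 to 0.556) and at Ess2 at 0.535 (0.468 to 0.610). Start sites of E2f1 and Btg2, with higher local backgrounds, had upper bounds of 0.597 and 0.609, below that of Ess2. Krt19 had levels of 9.39 in Ctrl, 14.4 with IFNγ, 5.59 and 6.98 with Oxali and Cispl, and 6.04 with Oxali + IFNγ. Genes with several start sites were counted here and in the gene lists by 1 region, the shared start-site region of highest mean level. Over all 13059 protein-coding genes with such a region, 1210 (9.27%) were higher, 2241 (17.2%) were lower and the median log2 ratio was -0.31. Centred on the median of all shared regions, 681 of these genes were higher and 7237 lower.

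Genes that answer interferon stood above that background. The list of interferon-induced GTPases and antiviral proteins had a shared start-site region for 21 of its 25 genes, with 14 higher and none lower and a median log2 ratio of 0.71, which is 1.01 above that of all genes. With every ratio divided by the median of all shared regions, 8 of the 14 stayed past 1.5-fold and none was lower. At start sites with a mean level under 20, 8 of 9 were higher, where 44.1% of all genes were. At levels of 20 and above it was 6 of 12, against 2.24% of all genes. In this list and those that follow, genes named beyond the 4 regions of largest q in a list were chosen after their values were seen.

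Oas3, an oligoadenylate synthetase that senses viral double-stranded RNA, had start-site levels of 12.9 in Ctrl, 11.2 with IFNγ, 43.4 and 31.2 with Oxali and Cispl, and 48.0 with Oxali + IFNγ, a ratio of 4.27 (3.48 to 5.29). The guanylate-binding proteins, which attack the vacuoles of intracellular pathogens, included Gbp4 at 4.47 (2.99 to 6.94), Gbp6 at 4.37 (3.21 to 6.06) and Gbp7 at 2.72 (2.21 to 3.36). Gbp6 had 5.35, 4.99, 11.7, 8.50 and 21.8 in the order of the lists given for Oas3. The immunity-related GTPases Irgm1 and Irgm2 had ratios of 1.87 (1.64 to 2.13) and 1.55 (1.32 to 1.82). Ifit1 and Ifit3, which bind foreign RNA, had 2.65 and 2.24, Oasl2 had 2.79 and the GTPase gene Mx1, with few reads, 2.17 (1.34 to 3.66).

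The other 7 genes of this list did not pass 1.5-fold. Gbp2 had 1.38 (1.19 to 1.61), the RNA sensor gene Ddx58 had 1.27 and Ifit2, with levels of 86.8 and 80.9, had 0.932. For all 14 that passed, the IFNγ level was at or below 33.4. Of these only Ifit1, at 10.3 against 8.57, Iigp1, at 5.51 against 4.94, and Oasl2, at 7.48 against 7.41, had a higher level with IFNγ than in Ctrl, besides Mx1, which was not called in Ctrl. The start site of a gene was one of several regions around it. Regions of the Oxali + IFNγ list alone lay within 5 kb of 18 of the 25 genes, or 72.0%, against 60.9% of all 21911 protein-coding genes, and regions of the IFNγ list alone within 5 kb of 4 of them (16.0%), against 19.5%. The first share did not set this list apart, since it was 72.2% for NF-κB genes, 83.3% for p53 targets, 86.7% for AP-1 and ATF genes and 87.5% for checkpoint genes. The median length with flanks was 26.6 kb in the list and 27.4 kb over all genes.

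**Figure D4:**
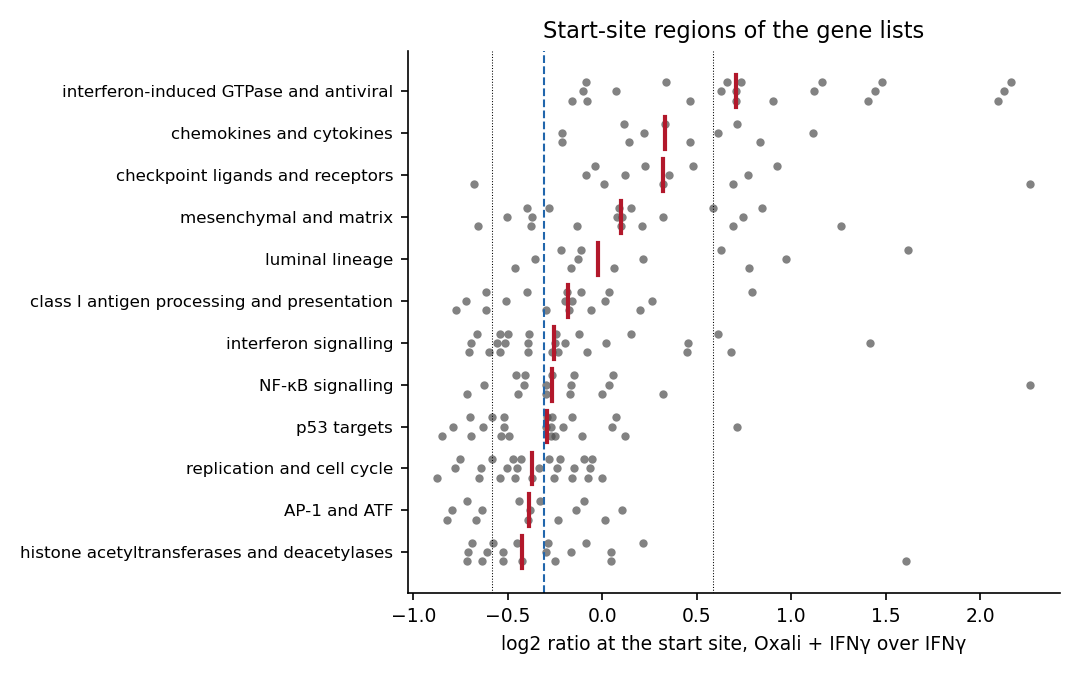
Each grey point is the start-site region of a gene of the list named on the vertical axis, placed by its log2 ratio of Oxali + IFNγ over IFNγ; red bars are list medians, the dashed blue line is the median of all protein-coding genes (-0.31) and dotted lines mark 1.5-fold. The interferon-induced list has the highest median, 0.71, and the histone acetyltransferases and deacetylases the lowest, -0.43.

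The receptor and signalling layer did not stand above the background. Of 26 interferon signalling genes 3 were higher and 4 lower, with a median of -0.26, and when centred 1 was higher and 13 were lower. The higher ones were Irf8, at 2.67 (1.93 to 3.76), Nmi, at 1.61, and Irf5, at 1.53, and the lower ones included Stat3, at 0.661 (0.610 to 0.716), and Irf3, at 0.618. Irf1 went from 96.7 to 80.5. Ifngr1, the ligand-binding chain of the receptor, went from 102 to 69.5, a ratio of 0.680 (0.621 to 0.746).

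At Ifngr2, the other chain of the receptor, the main start site differed little, with levels of 10.3 and 9.45, while a region by another start site at chr16:91561103-91561407 went from 4.88 to 10.9. Its pileups were 47 and 141 and its ratio 2.24 (1.60 to 3.18), and it had levels of 7.25 in Ctrl, 7.36 with Oxali and 9.74 with Cispl. A further 3 regions around the gene belonged to the Oxali + IFNγ list alone, the strongest at chr16:91568996-91569337 with a level of 4.96, near the 5.50 of the Oxali list. No region around Ifngr2 belonged to the IFNγ list alone. Over all protein-coding genes 60.9% had a region of the first kind within 5 kb and 19.5% one of the second.

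Class I antigen processing and presentation genes were near the background of all genes at their start sites. Of 18 genes 1 was higher and 4 were lower, with a median of -0.18, and when centred none was higher and 7 were lower. Tapbpl, a peptide editor related to tapasin, went from 16.8 to 29.2, a ratio of 1.74 (1.44 to 2.099). The region shared by the diverging genes Psmb9, an immunoproteasome subunit, and Tap1, a peptide transporter chain, had levels of 97.9 in Ctrl, 65.7 with IFNγ, 64.1 and 55.9 with Oxali and Cispl, and 42.9 with Oxali + IFNγ, a ratio of 0.652 (0.581 to 0.732). The heavy chain genes H2-K1 and H2-D1 had 0.926 and 0.961, and B2m, the light chain, went from 77.8 to 67.9. Calr and the region assigned to Psme2, which lies at the start site of Rnf31, were the other lower ones, at 0.607 and 0.584.

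Other regions of the same cluster on chromosome 17 included higher ones. Tap2, the other transporter chain, had an intron region at chr17:34210317-34211190 with levels of 33.6 with IFNγ and 64.5 with Oxali + IFNγ, a ratio of 1.92 (1.69 to 2.19), and a region downstream at chr17:34218537-34219408 that went from a pileup of 56 to 331, a ratio of 4.41 (3.31 to 5.96). In Ctrl these had levels of 23.4 and 8.98. Of the 5 shared regions around Tap2, 3 were higher and none lower, where 36.1% of all shared regions were higher. The region at the Tap2 start site at chr17:34203032-34203796, with a ratio of 1.815, is 1 of these 3 and also the only higher one of the 4 around Psmb8, an immunoproteasome gene next to Tap2. The list counted Tap2 by a start-site region of higher level, with a ratio of 1.03. The start site of Psmb8 itself had levels of 14.6 and 16.7. No unshared region of either kind lay around these 4 genes.

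Nlrc5, the transactivator of class I genes, was not among the higher genes counted above, since the start-site region of highest level had a ratio of 1.20. Another start-site region at chr8:94433630-94434720 had levels of 7.33 in Ctrl, 7.59 with IFNγ, 9.40 and 9.95 with Oxali and Cispl, and 16.0 with Oxali + IFNγ. Its pileups were 73 and 206 and its ratio 2.104 (1.60 to 2.79). Of 12 shared regions around the gene 5 were higher and none lower, where 36.1% of all shared regions were higher. The Oxali + IFNγ list alone held 9 regions there, next to the 12 shared ones, where 41.2% of that list was unshared. They included the intron region printed above, at chr8:94442859-94444271 with a level of 10.0, against 4.08 with Oxali and 2.98 with Cispl. The IFNγ list alone held 3, at levels of 2.60 to 4.16, where 8.38% of that list was unshared.

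Chemokines and checkpoint genes had some of the higher start sites. Of 11 chemokine and cytokine genes with a shared start-site region 4 were higher and none lower, where 9.27% of all genes were higher, and when centred Il6 alone was higher and none lower. They were Il6 at 2.17 (1.82 to 2.59), Cxcl10, which draws T cells, at 1.78 (1.38 to 2.32), Cx3cl1 at 1.64 and Il18 at 1.53. Il6 had levels of 28.0 in Ctrl, 17.8 with IFNγ, 43.8 and 33.5 with Oxali and Cispl, and 38.5 with Oxali + IFNγ. The region upstream of Ccl5 printed above, 4357 bp from its start site, went from 21.3 to 53.9, a ratio of 2.53 (2.16 to 2.97). Of 13 checkpoint ligands and receptors 4 were higher and 1 was lower, all 4 among the 6 with a level under 20, a class in which 44.1% of all genes were higher. When centred 2 were higher, Tnfrsf14 and Raet1e, and 1 was lower. Tnfrsf14, the receptor of BTLA and LIGHT, had 4.80 (3.75 to 6.21), with levels of 8.07, 7.69, 21.6, 19.5 and 36.9 in the same order of lists. Cd274, which encodes PD-L1, had 11.1 in Ctrl, 9.35 with IFNγ, 13.0 and 10.8 with Oxali and Cispl, and 16.0 with Oxali + IFNγ, a ratio of 1.71 (1.33 to 2.21). Nectin2 was the lower one, at 0.625. The medians of both lists, 0.33 and 0.32, were 0.64 and 0.63 above that of all genes.

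NF-κB signalling and p53 target genes had start-site medians close to that of all genes, with log2 differences of 0.04 and 0.02, and AP-1 and replication genes had -0.08 and -0.07. Over all protein-coding genes 9.27% were higher and 17.2% lower. Of 17 NF-κB genes 1 was higher and 2 were lower. Traf1, an adaptor of tumour necrosis factor receptors, went from 3.53 to 17.0, a ratio of 4.80 (3.34 to 7.11), and Nfkbiz from 114 to 69.6. Of 23 p53 targets 1 was higher, the death receptor gene Fas at 1.64 (1.34 to 2.01), and 5 were lower, among them Cdkn1a, the cell cycle inhibitor p21, at 0.647 and Mdm2 at 0.618. The AP-1 and ATF list had 5 of 14 (35.7%) lower, including Jun at 0.630 and Atf3 at 0.567, and none higher. Replication genes had 5 of 25 lower, including E2f1 at 0.546 and Pcna at 0.642, and none higher. All of these lower start sites had IFNγ levels of 66.4 or more, the class in which start sites as a whole were lower.

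Some distal regions of listed genes were higher, each named for its q or chosen after its values were seen. Over all shared regions 42.0% of those in introns and 39.9% of those between genes were higher. An intron region of Tnfrsf10b, a death receptor for TRAIL, went from 11.6 to 53.5, a ratio of 4.60 (3.76 to 5.67). Jdp2, a repressor of AP-1, had an intron region that went from 27.0 to 69.0. The Itga5 intron printed above, in the gene of a fibronectin receptor chain, went from 23.0 to 47.3, a ratio of 2.06 (1.76 to 2.41), and the Tnip1 intron printed above, in a gene for an inhibitor of NF-κB, went from 26.9 to 61.4, a ratio of 2.28 (1.98 to 2.63). An intron region of the replication gene Cdc45 went from 9.67 to 56.4, a ratio of 5.84 (4.70 to 7.32). At Nfkb1, the p50 subunit, 2 of 9 shared regions were higher, where 36.1% of all shared regions were. Of these 2, 1 lay in an intron at a ratio of 3.41 (2.28 to 5.24). The Oxali + IFNγ list alone held 4 regions there and the IFNγ list alone 2, where 41.2% and 8.38% of those lists were unshared. An intron region at chr3:135670592-135671455, with no IFNγ call, had levels of 3.54 in Ctrl, 10.5 with Oxali and 12.6 with Oxali + IFNγ.

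The luminal prostate lineage was checked first by its markers. As markers of the labelled cell type, Krt8, Foxa1 and Hoxb13 were called in both lists, Epcam in the IFNγ list alone, and Krt18 and Cdh1 in neither. Of 12 luminal lineage genes with a shared start-site region 4 were higher and none lower, where 9.27% of all genes were higher. The 4 were among the 5 with a level under 20, where 44.1% of all genes were higher, and none of the 7 at 20 or more was. When centred 2 were higher, Tmprss2 and Steap4, and 2 lower, Krt8 and Hoxb13. Regions of the IFNγ list alone lay within 5 kb of 8 of the 18 genes of the list (44.4%), against 19.5% of all genes, and the only called start sites of 2 genes belonged to it. Regions of the Oxali + IFNγ list alone lay near 10 of the 18 (55.6%), against 60.9%. Tmprss2, a membrane serine protease of the prostate, went from 2.70 to 8.29, a ratio of 3.07 (1.98 to 4.91), and had 2.72 in Ctrl, 8.69 with Oxali and 8.57 with Cispl. Steap4 and Folh1, the gene of prostate-specific membrane antigen, had 1.96 (1.57 to 2.46) and 1.71 (1.34 to 2.21), and Acpp, prostatic acid phosphatase, had 1.54 (1.06 to 2.28).

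Markers of other cell types were called too. Start sites of 2 of 6 haematopoietic markers were called with IFNγ and 4 of 6 with Oxali + IFNγ, the additions being Ptprc and Lyz2. For endothelium and fibroblast markers it was 2 and 3 of 6, with Pecam1 added. Cd3e, Itgam, Cdh5, Kdr and Pdgfrb were called in neither. Of all 21911 protein-coding genes, 13059 had a shared start-site region. The only called start site belonged to the Oxali + IFNγ list for a further 1048 and to the IFNγ list for 142. A part of other cells in the libraries was not tested.

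Exact matches to 12 consensus motifs were searched within 100 bp of each summit on both strands. The steroid receptor element, a palindrome bound by the glucocorticoid receptor and its relatives, had the largest ratio of shares between the unshared sets of the motifs searched. It was present in 1411 (2.03%, 1.92 to 2.13) of the regions of the Oxali + IFNγ list alone and in 8 (0.0845%, 0.0428 to 0.167) of those of the IFNγ list alone. Its reversed letters, a control of the same composition, were in 0.0789% and 0.116%. At levels under 3 the motif was in 1.50% and 0.0822%, and the gap was thus present among the weakest regions too. Shared regions held it in 1.36%, those higher with Oxali + IFNγ in 2.37% and those lower in 0.147%.

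Its share differed with the other lists that held a region. Among regions of the Oxali + IFNγ list alone it was in 3.24% (3.02 to 3.47) of those called with both drugs and not in Ctrl, in 2.24% of those called in Ctrl and in 0.760% (0.632 to 0.914) of those in no other list. Shared regions away from start sites had a median log2 ratio of 0.89 where they held the motif (n = 1174) and 0.43 where they did not. Without IFNγ, Oxali over Ctrl, the medians were 0.63 and 0.25. The Tnip1 intron and the region near 4931417E11Rik printed above are examples from the shared and the unshared set.

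RUNX matches (TGTGGTT) were in 12.4% (12.1 to 12.6) of the regions of the Oxali + IFNγ list alone, 6.01% (5.55 to 6.50) of the IFNγ list alone and 8.89% of the shared regions. NF-κB matches were in 3.31%, 1.53% and 2.47%, against 3.05%, 2.73% and 3.50% for the reversed letters. AP-1 (TGANTCA) was commoner in shared regions, at 24164 of 97944, than in the unshared sets, at 14643 of 69665 and 1445 of 9473. It reached 30.7% of the shared regions higher with Oxali + IFNγ against 14.5% of those lower. TEAD matches (ACATTCC) ran in the same direction, at 6.73% and 2.38%. ETS matches (CCGGAAG), which are common at promoters, had the reverse order, at 0.978% and 7.72%. Away from start sites these shares were closer to each other, at 31.3% and 21.4% for AP-1, 6.78% and 3.25% for TEAD and 0.943% and 1.59% for ETS.

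The interferon motifs were modest. IRF matches (GAAANNGAA) were in 7.09% of the Oxali + IFNγ list alone and 3.74% of the IFNγ list alone, while the reversed letters were in 6.39% and 4.36%. They were most frequent in regions that no other list held, at 9.07% (8.62 to 9.55), against 5.21% (4.84 to 5.61) in those also called in Ctrl. STAT matches (TTCNNNGAA) were in 6.42% and 4.75%, with 5.64% and 5.27% for the reversed letters. CTCF matches were in 5.69% of shared regions and in 1.81% and 1.05% of the unshared ones. A match describes letters and does not show that a factor was bound.

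The ratio of Oxali + IFNγ over IFNγ was close in order to that of Oxali over Ctrl, which uses other libraries. Over the 87647 regions called in all 4 lists the Pearson correlation of the log2 ratios was 0.797 and Spearman's 0.791, across regions that share level, base composition and local background. The median was 0.34 with IFNγ and 0.15 without. Of 32192 regions higher by 1.5-fold with IFNγ present, 20266 (63.0%) were higher without it, and these were 83.1% of the 24395 higher without it. Of 4818 lower with IFNγ present, 2708 (56.2%) were lower without it, which was 36.0% of 7517. At start sites the medians were -0.10 and -0.25, in introns 0.47 and 0.27.

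**Figure D5:**
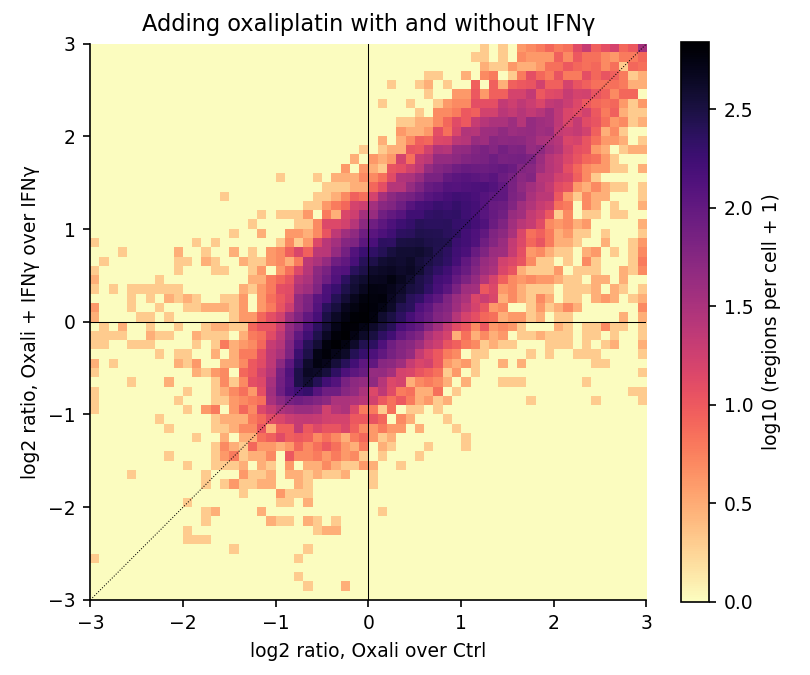
Shading gives the number of regions, on a log10 scale, at each pair of log2 ratios for the 87647 regions called in the Ctrl, Oxali, IFNγ and Oxali + IFNγ lists; the horizontal axis is Oxali over Ctrl, the vertical axis Oxali + IFNγ over IFNγ and the dotted line marks equal ratios. The cloud runs along the dotted line, with Pearson's r of 0.797.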

How the data were processed

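ATAC-seq was measured in 10 Myc-CaP libraries in 5 groups of 2. Per the labels and the study's methods, the authors trimmed reads with cutadapt, aligned them to mm10 with Bowtie2 2.2.8 keeping up to 5 placements, filtered them with SAMtools at a mapping quality of 30, removed duplicates and mitochondrial reads, merged the 2 libraries of a group and called peaks with MACS2 2.1.0 (p of 0.01, shift of -75, extension of 150 bp, no control library). The deposited lists give each peak's fold enrichment over the local background as a ratio, and its p and q as −log10 p and −log10 q values. From the fold and −log10 p of the deposited peaks the pileup and the local background were recovered by solving MACS2's formulas, with 1 added to both, in 100% of peaks to within 0.001 in −log10 p, and this was tested on simulated data. Peaks of 1 interval with several summits were joined, and the q threshold was 0.01.

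Positions and genes came from GENCODE M21 and sequences from GRCm38.p6. Shares carry 95% Wilson intervals and pileup ratios 95% exact conditional binomial intervals. They cover counting error only, since reads are not independent molecules and no per-library values were used. Depth was read from the genome background, 9.62 with IFNγ and 12.9 with Oxali + IFNγ. Regions were named by fixed ranks. These were the 8 and 5 unshared regions of largest −log10 q, the 6 shared regions at each end of the ratio's bounds and 4 start sites at each end. All of these had a local background of at most 3 times the genome background. Also named were up to 4 genes of each list, 7 genes the study addresses, and the 5 genes with the most regions and the 5 with the densest. The members, gene lists and alternatives were chosen with earlier results of these data known. Alternatives tried were matched depth, a q of 1e-05, all deposited regions, other overlaps and distances, equal ranks, a low local background, other scalings and a 2-fold threshold. Python 3.11.15, numpy 2.4.6, pandas 2.3.3, scipy 1.17.1 and matplotlib 3.10.9 were used. No limit on the local background applies to counts. The values of some genes are not reported here.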

Additional observations from a re-analysis of the deposited data

Results flagged for a closer look

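Among the 87647 regions called in the Ctrl, Oxali, IFNγ and Oxali + IFNγ lists, 144 were at least 1.5-fold higher with Oxali + IFNγ than with IFNγ and at least 1.5-fold lower with Oxali than in Ctrl. Another 46 were lower with IFNγ present and higher without it. They stand out because adding oxaliplatin went in opposite directions in the presence and absence of IFNγ. The difference was not tested, since each group had 1 pooled list.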

How the results depend on the processing

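The share of unshared regions held by the Oxali + IFNγ list, 88.0%, was 87.2% at matched depth, 92.2% at a q of 1e-05, 86.1% over all deposited regions, 87.6% when an overlap had to cover 50% of the shorter interval, 90.5% without regions within 500 bp of the other list, 76.1% at equal ranks, 88.4% at a low local background, and 80.3% when depth and the median level were both matched, a choice made after the data were seen. The count of the Oxali + IFNγ list alone fell to 17923 at equal ranks and 44993 with depth and level matched, and that of the IFNγ list alone to 4380 at a q of 1e-05, 6242 beyond 500 bp and 5621 at equal ranks. The start-site share of 10.1% became 8.22% beyond 500 bp, 10.5% at equal ranks, 8.47% at a low background and 9.83% with depth and level matched. Shared regions higher by 1.5-fold became 21568 when centred and 18715 at 2-fold, and those lower 17181 when centred, 8959 when scaled to the summed pileup, 2793 at a low background and 839 at 2-fold. The start-site minus intergenic median of -0.49 became -0.51 at a q of 1e-05, -0.17 at a low background and -0.48 where 1 interval of each list met. Among the shared-region counts and the differences between positions no direction reversed, but the start-site median itself turned from -0.08 to 0.31 at a low background. When centred, the mesenchymal genes turned from 4 higher and 1 lower to 1 and 6, the luminal genes went from 4 and 0 to 2 and 2, the chemokines from 4 to 1 higher, the checkpoint genes from 4 to 2, and the NF-κB, p53, AP-1, replication and histone enzyme lists had 9, 15, 9, 15 and 12 lower. The remaining 25 of these values stayed within their limits, and of the values of single genes and lists 107 did and 49 moved. Except where the construction sets it (fewer regions entered, or a higher fold), the cause was not tested. No paired analysis was possible because both libraries of a group were merged before calling, and leaving out a replicate was not run for the same reason. Weak regions are the least certain, and the IFNγ list, the shallower one, had the higher limit of detection in units of its background.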

Other observations

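At matched depth 13086 protein-coding genes had at least 1 region of the Oxali + IFNγ list alone within 5 kb, and the median over all genes was 2.41 regions per 100 kb. The largest counts were in long gene models, with 300 regions in Gm20388, which spans 4445 kb with flanks, 117 in Fgfr2, 64 in Gm37240 and 50 each in Dgki, a diacylglycerol kinase, and Dlgap2, a postsynaptic scaffold. Dlgap2 had 13 shared regions and none of the IFNγ list alone. Among genes with at least 5 regions the densest were Gm4303 and Gm4302, members of a family of near-identical copies whose reads cannot be placed with certainty, then Tnf, Cd79b and Klhl40.

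The 5 regions around Tnf, the gene of tumour necrosis factor, lay between chr17:35197347-35197717 and chr17:35205997-35206840, beside its relatives Ltb and Lta. Their Oxali + IFNγ levels were 7.90, 6.28, 3.72, 2.71 and 5.35. The Oxali list held 4 of them, at 7.27, 5.50, 3.28 and 3.55, and the Ctrl list 2, at 3.38 and 2.88.

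Of 19 mesenchymal and matrix genes with a shared start-site region 4 were higher and 1 was lower, where 9.27% and 17.2% of all genes were. The 4 were among the 5 with a level under 20, where 44.1% of all genes were higher, and when centred on the median of all shared regions 1 was higher and 6 were lower. Zeb1, a repressor of epithelial genes, went from a level of 5.09 with IFNγ to 12.2 with Oxali + IFNγ, a ratio of 2.40 (1.74 to 3.38), and Thbs1 had 1.80 (1.23 to 2.68). The lower one was Ccn1, at 0.633. Of 19 histone acetyltransferases and deacetylases 1 was higher and 5 were lower. The higher one was Hdac5, with levels of 31.9 in Ctrl, 24.7 with IFNγ, 72.0 and 31.5 with Oxali and Cispl, and 75.3 with Oxali + IFNγ. Ep300, which encodes p300, went from 79.8 to 52.3, a ratio of 0.655 (0.590 to 0.728).

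On chromosome X the median log2 ratio of the shared regions was 0.10, against 0.26 to 0.40 on the autosomes, and 12.5% of its IFNγ regions were unshared.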
